A study of Saccharomyces cerevisiae with 7 samples.

Results

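The genes described here make amino acids under the control of the transcriptional activator Gcn4, with the arginine genes left out. They were taken as the probe sets whose platform gene symbol was in a list of 35 names, GCN4 itself and 34 genes of biosynthesis. All 35 were measured, each by 1 probe set, among 5900 probe sets in the table, of which 5498 carried a gene name and were compared. They fall into a histidine branch of 6 genes, a lysine branch of 7, a branched-chain branch of 7 (isoleucine, valine and leucine), an aromatic branch of 8 and 6 genes of other branches (serine, asparagine and vitamin B6).

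In budding yeast, Saccharomyces cerevisiae, shortage of any amino acid activates the kinase Gcn2, which lowers general translation initiation and at the same time lets ribosomes pass the short reading frames ahead of the GCN4 coding sequence. More Gcn4 protein is then made from the same messenger, and it raises transcription of enzyme genes in nearly every amino acid pathway at once, a response called general amino acid control. Single pathways have further regulators, such as Leu3 for leucine, Lys14 for lysine, and Bas1 with Pho2 for histidine.

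The study compared a wild type (4 arrays) with a strain deleted for HMT1 (3 arrays), which makes the principal enzyme that methylates arginine in yeast proteins. The arrays were Affymetrix Yeast Genome 2.0 arrays, each with total RNA of a separate biological replicate. The wild type was BY4741, a haploid of mating type a with the alleles his3∆1, leu2∆0, met15∆0 and ura3∆0. The deletion strain was BY4741 with hmt1∆::KANMX4, so both groups needed histidine, leucine, methionine and uracil from the medium. The labels name rich medium and minimal media with glycine, replete with or depleted of phosphate, and do not say which of them these cultures grew in, so the supply of amino acids is not known.

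Values are log2 expression levels, and differences are given as deletion minus wild type, so that a difference of 1 is a doubling. Each probe set was tested with limma, a linear model with shared variance estimates, and a gene passed at a Benjamini-Hochberg adjusted p under 0.05 over the 5498 probe sets. The HMT1 probe set read 11.58 to 12.10 in the wild type and 4.50 to 5.03 in the deletion strain (limma adjusted p = 4.89e-07). The deleted markers URA3, MET17 and LEU2 had wild-type means of 3.55, 4.05 and 5.01, levels of probe sets whose gene was absent. Median levels of the arrays were between 9.95 and 9.98. The 7 measured a-cell markers had mean levels of 11.48 to 12.41 in the wild type and 11.97 to 12.07 in the deletion strain, and the 2 measured alpha-cell markers 7.70 to 8.09 and 7.79 to 7.94.

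The wild-type arrays were not uniform. Replicates 1 and 3 gave 3.18 to 4.44 on 6 reporter control probe sets without a gene name. The other 5 arrays, all deletion arrays among them, gave 6.16 to 12.59. These 6 were picked from the reporter probe sets for reading lower in replicates 1 and 3, so the choice itself fixed this split. What these probe sets detect is not annotated in the files, and the labels do not say whether the 4 wild-type cultures came from the same isolate. A mean over the 4 wild-type arrays may therefore cover unlike cultures. The mean level of 12 pheromone-response genes divided the wild type the same way, with 7.55 and 7.62 in replicates 1 and 3 and 9.11 and 9.13 in replicates 2 and 4, against 8.25 to 8.39 in the deletion strain. The amino acid genes are therefore given below against all 4 wild-type arrays and against each of these pairs.

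None of the 35 genes passed the test between the strains. Over all probe sets 0.2% passed, and the smallest limma adjusted p among the members was 0.493, that of SER3. At an unadjusted p under 0.05 there was 1 member, SER3 again, where 6.64% of all probe sets reached this level. By sign, 24 members were higher in the deletion strain and 11 lower (68.6% higher, against 52.5% of all probe sets), with a median difference of 0.04 against 0.01 over all probe sets. The count by sign rested on wild-type replicate 2: without it, 13 of the 35 were higher and the median was -0.04.

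The precision was enough to bound most of these differences. The 95% interval of the difference lay within 0.5 of 0 on the log2 scale for 31 of the 35 members and within 1 for 34. Over all 5498 probe sets these counts were 4809 and 5400, so the members were near the common rate. The exceptions to the narrower bound were LYS20, SER3, SNZ1 and SNO1, and SNO1, whose interval ran from -0.78 to 1.26, was also the exception to the wider bound. For the other members the intervals do not show that the strains are alike, only how far apart they can be.

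**Figure D1:**
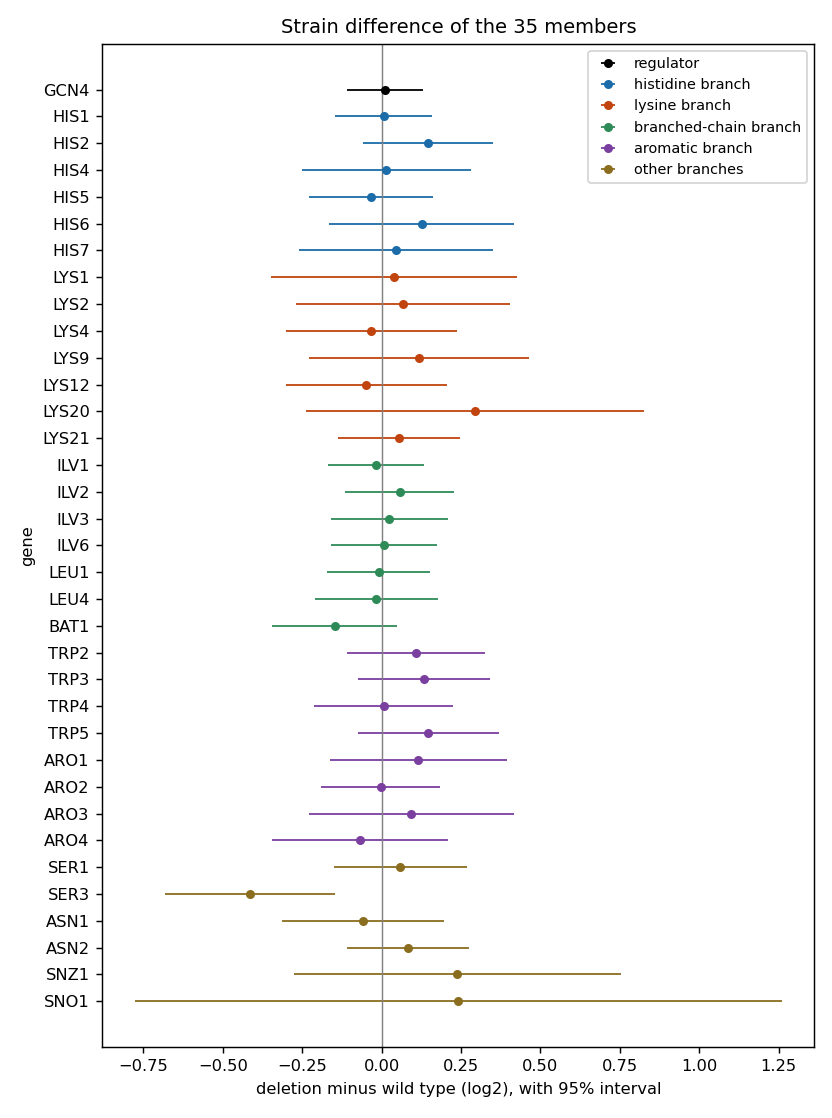
Difference between the strains for each of the 35 genes (points, log2 of deletion over wild type) with its 95% interval from limma (bars, n = 4 and 3), coloured by branch. SER3 has an interval that does not reach 0, from -0.68 to -0.15, and no gene passed the test over all probe sets.

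GCN4, the activator, was the steadiest of the members. Its probe set read 13.52, 13.50, 13.46 and 13.54 in wild-type replicates 1 to 4 and 13.51, 13.48 and 13.56 in deletion replicates 1 to 3. The groups overlapped, and the whole range of the 7 arrays was 0.09, at a mean level above that of 97.1% of all probe sets. The difference was 0.01 (SE 0.05, 95% interval -0.11 to 0.13, limma adjusted p = 0.969). These values are of the messenger, whereas the known control of Gcn4 acts mainly on its translation, which the arrays do not measure.

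In the histidine branch, 5 of 6 genes were higher in the deletion strain and 1 was lower, with a median difference of 0.03 and a range from -0.03 to 0.15. HIS2, the histidinol phosphatase, read 10.05, 9.83, 10.20 and 9.97 in the wild type and 10.18, 10.17 and 10.13 in the deletion strain. The deletion arrays were close together and lay inside the wild-type range (difference 0.15, SE 0.09, limma adjusted p = 0.803). HIS6, an isomerase of the middle of the pathway, read 10.09, 9.56, 9.92 and 9.79 in the wild type and 9.92, 9.88 and 10.10 in the deletion strain (difference 0.13, SE 0.13). Replicate 2 was the low array there too.

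HIS5, the histidinol-phosphate aminotransferase, was the histidine gene with a negative difference. It read 10.66, 10.42, 10.64 and 10.74 in the wild type and 10.50, 10.62 and 10.62 in the deletion strain (difference -0.03, SE 0.08). Of the remaining histidine genes, HIS1, which makes the enzyme of the committed first reaction, was at 0.01 (SE 0.07), HIS4, a multifunctional enzyme, at 0.01 (SE 0.11), and HIS7, which closes the imidazole ring, at 0.04 (SE 0.13). In all 6 genes wild-type replicate 2 was the lowest of the 7 arrays.

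The lysine branch had 5 genes higher and 2 lower, with a median difference of 0.05. LYS20 and LYS21 make the isozymes of homocitrate synthase, the entry into the pathway. LYS20 had the largest positive difference of all members, 0.29, and also a wide error (SE 0.23, limma adjusted p = 0.840). Its wild-type arrays fell into high and low values, with 11.99 and 11.81 in replicates 1 and 3 and 11.05 and 11.17 in replicates 2 and 4, while the deletion arrays read 11.78, 11.69 and 11.93. The deletion strain thus lay at the level of replicates 1 and 3.

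LYS21 kept the same order of wild-type arrays over a smaller range. It read 10.89, 10.56, 10.76 and 10.65 in the wild type and 10.76, 10.79 and 10.76 in the deletion strain (difference 0.05, SE 0.08). LYS9, a saccharopine dehydrogenase near the end of the pathway, read 11.97, 11.32, 11.83 and 11.53 in the wild type and 11.77, 11.71 and 11.85 in the deletion strain (difference 0.12, SE 0.15). In both genes the deletion arrays lay above replicates 2 and 4 and below replicate 1, and 1 of them was above replicate 3. LYS1, which makes the enzyme of the last step, was at 0.04 (SE 0.17), LYS2, the aminoadipate reductase, at 0.07 (SE 0.15), LYS4, homoaconitase, at -0.03 (SE 0.12), and LYS12, homoisocitrate dehydrogenase, at -0.05 (SE 0.11).

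The branched-chain genes varied least among the 5 branches, with a median standard deviation of 0.12 in the wild type and 0.05 in the deletion strain. There were 3 higher and 4 lower, with a median difference of -0.01. BAT1, the mitochondrial aminotransferase of the branched-chain amino acids, had the largest difference. It read 13.18, 12.82, 13.05 and 13.02 in the wild type and 12.85, 12.87 and 12.90 in the deletion strain. All deletion arrays were below 3 of the wild-type arrays and above replicate 2 (difference -0.15, SE 0.08, limma adjusted p = 0.803). Without replicate 2 the difference was -0.21, and it did not pass the test.

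ILV2, the catalytic subunit of acetolactate synthase, read 12.44, 12.16, 12.38 and 12.29 in the wild type and 12.38, 12.36 and 12.39 in the deletion strain (difference 0.06, SE 0.07). ILV3, a dihydroxyacid dehydratase, read 13.18, 12.91, 13.13 and 13.12 in the wild type and 13.17, 13.04 and 13.12 in the deletion strain (difference 0.02, SE 0.08). In both genes the groups overlapped, with replicate 2 lowest. The regulatory subunit of acetolactate synthase, ILV6, was at 0.01 (SE 0.07), threonine deaminase, ILV1, at -0.02 (SE 0.07), and the leucine genes LEU1 and LEU4 at -0.01 (SE 0.07) and -0.02 (SE 0.08).

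In the aromatic branch 6 genes were higher and 2 lower, with a median difference of 0.10, the largest of the 5 branch medians. It was -0.012 without wild-type replicate 2 and 0.15 without replicate 1. Without replicate 2 the other branch medians were also below 0, at -0.057 for lysine, -0.053 for histidine, -0.038 for branched-chain genes and -0.035 for the other branches. The aromatic gene with the largest difference, TRP5 (tryptophan synthase), was at 0.15 (SE 0.10, limma adjusted p = 0.823). TRP5 read 12.60, 12.28, 12.69 and 12.53 in the wild type and 12.71, 12.63 and 12.68 in the deletion strain, and the groups overlapped through wild-type replicate 3. TRP2 and TRP3 make the subunits of anthranilate synthase, the entry from chorismate into tryptophan synthesis. TRP3 read 10.88, 10.60, 10.95 and 10.72 in the wild type and 10.87, 10.95 and 10.94 in the deletion strain (difference 0.13, SE 0.09).

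TRP2 read 11.70, 11.37, 11.76 and 11.62 in the wild type and 11.75, 11.73 and 11.70 in the deletion strain (difference 0.11, SE 0.09). As for TRP3, the deletion arrays were at the level of wild-type replicates 1 and 3. TRP4, the next enzyme on the way to tryptophan, was at 0.01 (SE 0.09). Upstream of chorismate, ARO1, which makes a multifunctional enzyme of the shikimate pathway, was at 0.12 (SE 0.12), and ARO2, chorismate synthase, at -0.0026 (SE 0.08, 95% interval -0.19 to 0.18). ARO3 and ARO4 make isozymes of the entry step that are inhibited by phenylalanine and by tyrosine. They were at 0.09 (SE 0.14) and -0.07 (SE 0.12).

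SER3, lower in the deletion strain, was the only member whose groups did not overlap. Of all 5498 probe sets, 420 separated in either direction, and 4.49% separated downwards. SER3 makes a phosphoglycerate dehydrogenase, the entry of serine synthesis from glycolysis. It is known to be held down by transcription of the noncoding gene SRG1 just ahead of it. No probe set was named to SRG1. SER3 read 10.18, 9.86, 9.88 and 10.01 in the wild type and 9.36, 9.59 and 9.76 in the deletion strain. The group means were 9.98 ± 0.15 (SD, n = 4) and 9.57 ± 0.20 (SD, n = 3), which is 75.1% of the wild-type level on the linear scale (95% interval 62.4% to 90.3%). In RNA of whole cultures, fewer cells that express a gene and less RNA per cell cannot be told apart.

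The SER3 difference of -0.41 (SE 0.12) did not pass (limma adjusted p = 0.493, unadjusted 0.00745). By exact permutation (two-sided) its p was 0.0286, which is the lowest that 35 splits of 7 arrays can give. Against wild-type replicates 2 and 4 the difference was -0.37 and against 1 and 3 it was -0.46. As the groups did not overlap, any choice of wild-type arrays gives a negative difference. The shared sign is therefore no separate support, and both values use the same 3 deletion arrays. The next step of the pathway, SER1, was at 0.06 (SE 0.09). SER33, which makes the isozyme of Ser3 and is not a member, was at -0.10 (SE 0.09), with groups that overlapped.

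SER3 and SER33 were among 7 isozyme or family pairs compared directly, by the difference between their strain differences. For SER3 against SER33 it was -0.31 (exact permutation p = 0.114, adjusted 0.266 over the 7 pairs). The smallest exact p was that of ARO3 against ARO4, 0.16 apart (exact permutation p = 0.0571, adjusted 0.266). The others were LYS20 with LYS21, ASN1 with ASN2, LEU4 with LEU9, BAT1 with BAT2 and SNZ1 with SNZ3, with adjusted exact permutation p from 0.266 to 0.971. No pair passed, and with 35 splits a single pair could not have passed an adjustment over 7.

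The asparagine synthetase genes ASN1 and ASN2 lay on either side of 0. ASN2 read 12.96, 12.78, 13.10 and 12.84 in the wild type and 13.04, 13.00 and 12.97 in the deletion strain (difference 0.08, SE 0.08), inside the wild-type range. ASN1 was at -0.06 (SE 0.11).

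SNZ1 and SNO1 are neighbours in the genome and make the subunits of an enzyme of vitamin B6 synthesis. SNZ1 read 9.54, 8.79, 9.70 and 9.14 in the wild type and 9.71, 9.64 and 9.24 in the deletion strain (difference 0.24, SE 0.22). SNO1, added to the genes given in full after its values were seen, read 6.74, 5.13, 6.76 and 5.48 in the wild type and 6.47, 6.59 and 5.76 in the deletion strain (difference 0.24, SE 0.44). Both genes were low in wild-type replicates 2 and 4 and in deletion replicate 3 and high in the other 4 arrays. SNO1 had the widest range of all members, 1.63, and its lowest value was near the mean of the deleted LEU2.

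**Figure D2:**
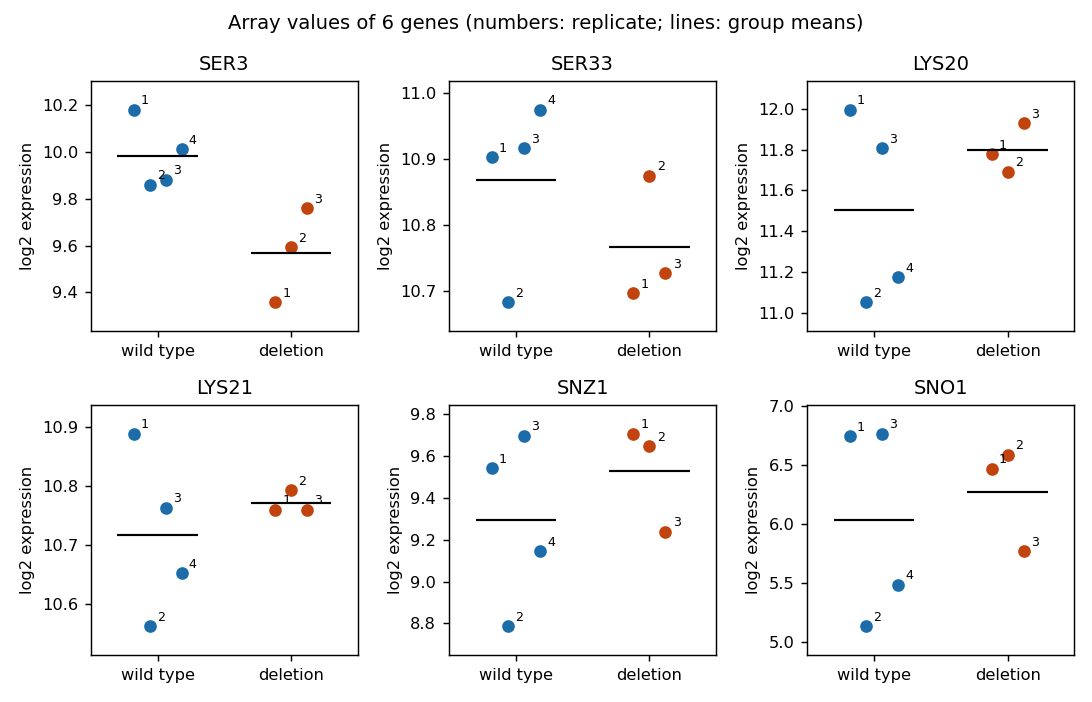
Array values (log2 expression) of SER3 with its isozyme gene SER33, LYS20 with LYS21, and the neighbours SNZ1 and SNO1, with replicate numbers beside the points and lines at the group means; each panel has its own axis. SER3 separates the strains, whereas LYS20, SNZ1 and SNO1 are spread within the wild type, with replicates 2 and 4 low.

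Within the wild type the range of the 4 arrays had a median of 0.38 over the members, against 0.29 over all probe sets. This range was larger than the strain difference for 34 of the 35 genes, all but SER3 (95.4% of all probe sets). Wild-type replicate 2 was the lowest of the 4 wild-type arrays for 33 of the 35 genes (94.3%), where it was the lowest for 38% of all probe sets. The exceptions were GCN4 and LEU4. It was the lowest of all 7 arrays for 31 genes (88.6%, against 31.4% of all probe sets) and the highest for none (23.7% of all probe sets). Over all probe sets replicate 2 also had the lowest limma array weight, 0.23, against 0.54 to 3.26 for the other arrays. Its distance from the mean of the other 3 wild-type arrays had a median of -0.26 over the members, against -0.04 over all probe sets, and ranged from -1.20 for SNO1 to -0.0029 for GCN4.

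This low reading touched every branch. The median distance of replicate 2 from the other wild-type arrays was -0.46 in the lysine branch, -0.32 in the histidine branch, -0.32 in the aromatic branch, -0.31 in the other branches and -0.21 in the branched-chain branch. It was below 0 in all 35 members and in 60.2% of all probe sets. The largest distances after SNO1 were those of SNZ1 at -0.67, LYS20 at -0.61, LYS1 at -0.51 and ARO3 at -0.51. The probe set of the activator did not follow: GCN4 in replicate 2 was within 0.01 of the mean of the other wild-type arrays. Its mean level was above that of 97.1% of all probe sets, and how well the arrays resolve differences there was not tested.

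**Figure D3:**
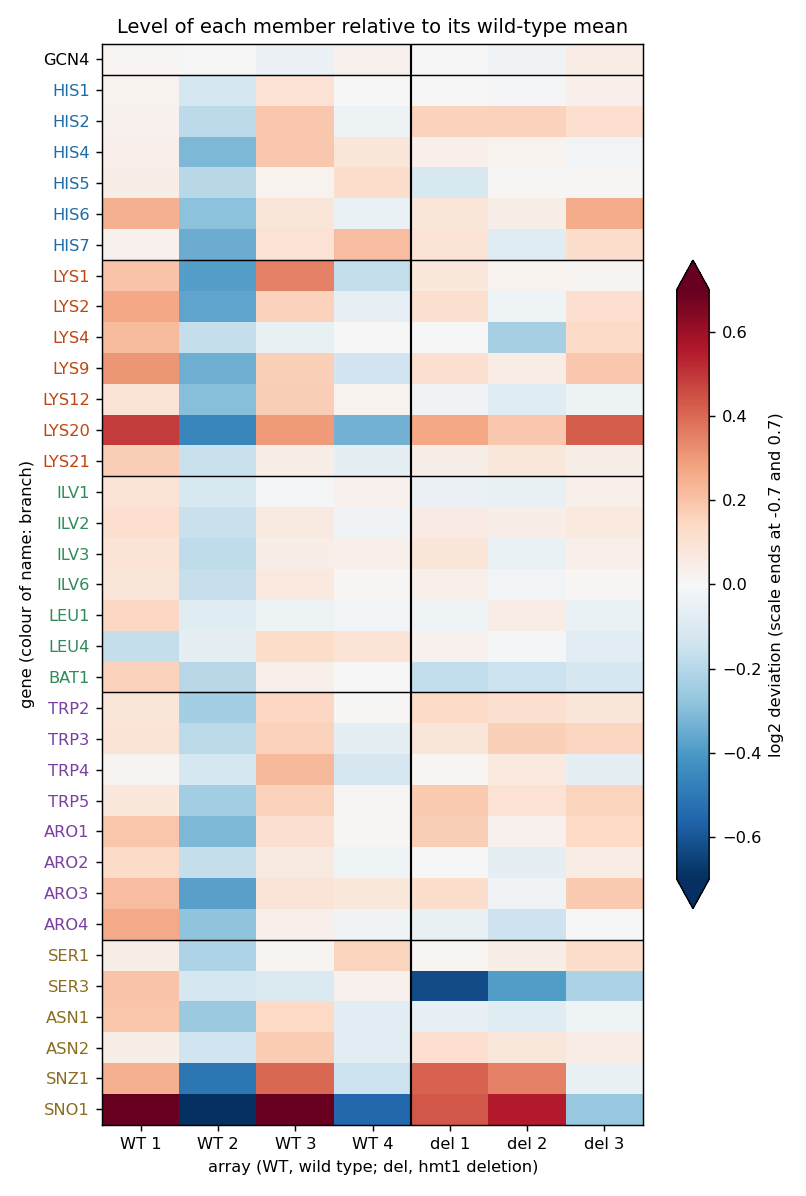
Level of each gene on each array relative to its mean over the 4 wild-type arrays (log2, red higher, blue lower), with genes ordered by branch and the strains divided by the vertical line. The column of wild-type replicate 2 is blue in nearly every row, and in the SER3 row all 3 deletion arrays lie below every wild-type array.

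Wild-type replicate 4 shared part of this pattern. Both replicates 2 and 4 lay below both replicates 1 and 3 for 25 of the 35 members (71.4%, against 22.5% of all probe sets), among them all 8 aromatic genes and 6 of the 7 lysine genes. The median of the pair difference, replicates 2 and 4 minus 1 and 3, was -0.43 in the lysine branch, -0.28 in the other branches, -0.25 in the aromatic branch, -0.18 in the histidine branch and -0.14 in the branched-chain branch. For all members it was -0.22, and for all probe sets -0.03. These are the same pairs that the chosen reporter probe sets and the pheromone-response genes divide, in the opposite direction. The part of these readings in the result was not tested.

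The strain comparison therefore turned with the wild-type arrays used. Against replicates 2 and 4 alone, 31 of the 35 members were higher in the deletion strain, with a median of 0.13 (0.02 over all probe sets), and in 16 the groups did not overlap upwards (21.1% of all probe sets). Against replicates 1 and 3 alone, 29 were lower, with a median of -0.06 (-0.01 over all probe sets), and in 11 the groups did not overlap downwards (11.1% of all probe sets). Both comparisons use the same 3 deletion arrays. No member passed limma's adjusted test in either (0.2% and 0.127% of all probe sets passed), with smallest adjusted p of 0.0782 and 0.396. At an unadjusted p under 0.05 there were 14 members against replicates 2 and 4, 13 of them higher (16.3% of all probe sets reached this level), and 5 against replicates 1 and 3, all lower (6.6%).

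By branch, the medians against replicates 2 and 4 were 0.28 for lysine, 0.24 for aromatic, 0.15 for the other branches, 0.12 for histidine and 0.04 for branched-chain genes. Against replicates 1 and 3 they were -0.12, -0.05, -0.16, -0.05 and -0.06 in the same order. Of the single genes, LYS20 stood at 0.69 and -0.10 against these pairs, SNO1 at 0.97 and -0.48, SNZ1 at 0.56 and -0.09, and LYS1 at 0.31 and -0.24. The genes whose difference kept its sign were HIS2, TRP3, TRP5 and SER1, higher against both, and BAT1 and SER3, lower against both. These 6 were singled out after their values were seen, and for SER3 the sign was fixed by groups that did not overlap.

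**Figure D4:**
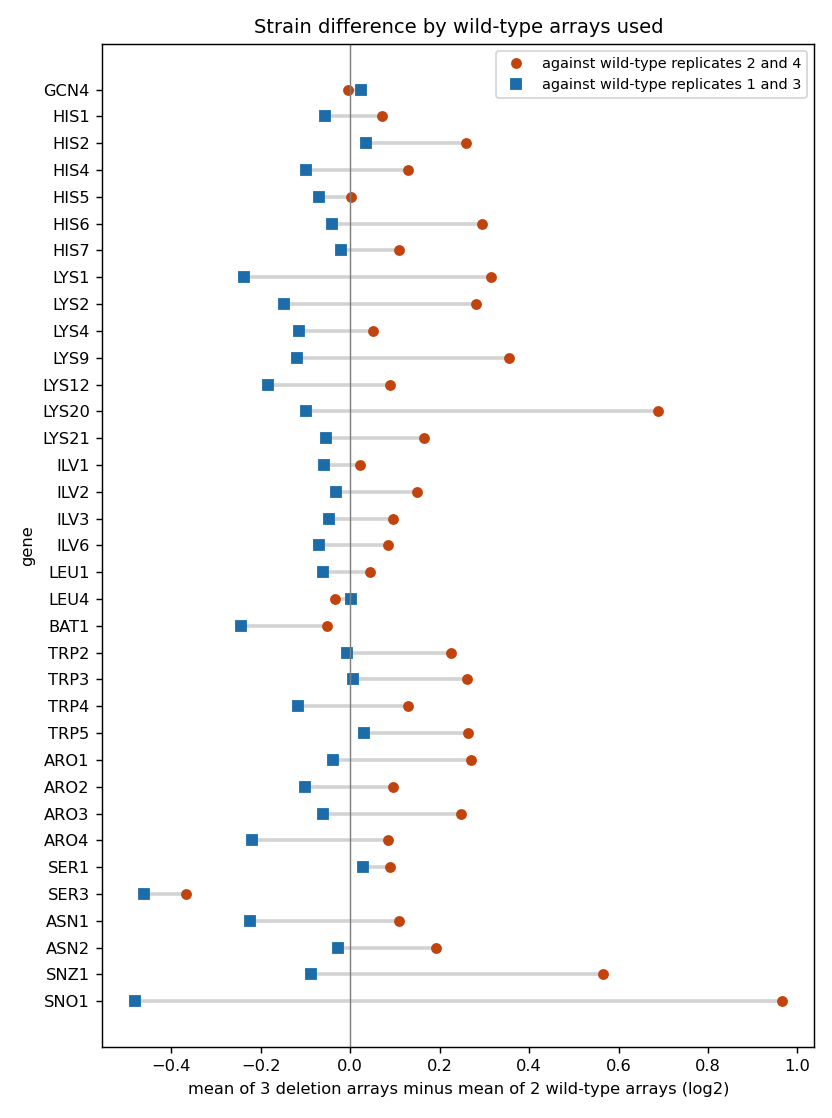
Strain difference of each gene (log2) when the 3 deletion arrays are set against wild-type replicates 2 and 4 (circles) or 1 and 3 (squares), with a grey line joining the values of a gene; the deletion arrays are shared. For 31 genes the circle lies above 0 and for 29 the square lies below it, while SER3 lies below 0 with both.

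The deletion arrays themselves were close together. The standard deviation over the wild-type arrays was larger than that over the deletion arrays for 32 of the 35 members (91.4%, against 76.1% of all probe sets), with medians of 0.16 and 0.05. The median deviation of the members from the wild-type mean was 0.04, 0.02 and 0.04 in deletion replicates 1 to 3. In the wild type it was 0.12, -0.20, 0.10 and -0.00069 in replicates 1 to 4, so the deletion arrays lay between the high and the low wild-type arrays.

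Technical and stress readings were set beside this spread. The signal of the 3′ actin control probe set over the 5′ one was 0.30 in wild-type replicate 2 and 0.21 to 0.24 in the other 6 arrays, on the log2 scale. Of 12 stress-induced genes, 9 were higher in the deletion strain (52.5% of all probe sets were higher), with a median difference of 0.29. None of the 12 genes passed (smallest limma adjusted p = 0.581). At an unadjusted limma p under 0.05 there were 3 of the 12 (6.64% of all probe sets). In 2 of the 12 the groups did not overlap upwards (3.15% of all probe sets). The mean level of the 12 genes ran from 9.17 to 10.16 in the wild type, lowest in replicate 1, and from 9.73 to 10.29 in the deletion strain. The part of these readings in the values of the amino acid genes was not tested.

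**Figure D5:**
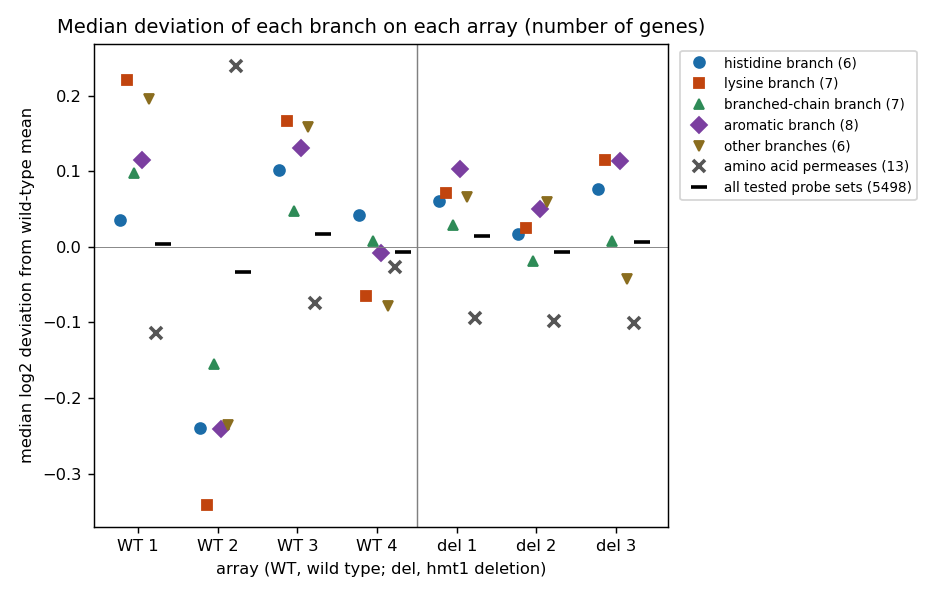
Median log2 deviation from the wild-type mean for the genes of each branch on each array, with amino acid permease genes and all tested probe sets for comparison. All 5 branches lie lowest in wild-type replicate 2, where the permease genes lie highest at 0.24.

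Other genes of the same pathways showed no call either. Of 13 measured enzymes of these branches outside the list (15 were listed), none passed, 7 were higher and 6 lower, with a median difference of 0.0015. LEU9, an isozyme of isopropylmalate synthase, had the smallest p, with a difference of -0.21 (SE 0.09, limma adjusted p = 0.742). Of the 5 genes of homoserine and threonine synthesis none passed and all were higher, by 0.01 to 0.07, with HOM3, aspartate kinase, at the upper end (SE 0.11). The auxotrophic marker HIS3 belongs to the first of these lists. It is partly deleted in both strains and had means of 11.52 and 11.53.

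Genes that control Gcn4 or single pathways also held no call. Of 16 genes listed for Gcn4 control, among them the Gcn2 pathway, initiation factors, Gcn4 turnover and a cofactor, 10 were higher and 6 lower. MBF1, a coactivator that links Gcn4 to the TATA-binding protein, was at 0.23 (SE 0.15, limma adjusted p = 0.815). Among 6 pathway regulators 3 were higher and 3 lower. PHO2, which acts with Bas1 on histidine and purine genes and with Pho4 on phosphate genes, read 9.35, 9.21, 9.35 and 9.25 in the wild type and 9.39, 9.46 and 9.44 in the deletion strain. The groups did not overlap (3.15% of all probe sets separated upwards), and the difference of 0.14 (SE 0.06) did not pass (limma adjusted p = 0.742).

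Amino acid permease genes were the last group compared. Of 13 genes, 10 were lower in the deletion strain and 3 higher (52.5% of all probe sets were higher). None passed, and the median difference was -0.09. Against wild-type replicates 2 and 4 the median was -0.14, with 2 of the 13 higher. Against replicates 1 and 3 it was -0.01, with 8 of the 13 lower. HIP1, the histidine permease, had the smallest p and read 11.36, 11.66, 11.14 and 11.52 in the wild type and 11.16, 11.14 and 11.23 in the deletion strain (difference -0.24, SE 0.12, limma adjusted p = 0.796). Wild-type replicate 2 was the high array here.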

How the data were processed

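The deposited values are log2 expression levels, and the authors obtained them with RMA, which corrects background, equalises the distributions of the arrays and summarises each probe set, in affy 1.52.0, per the submitters' processing notes. A change in total messenger RNA is therefore lost. Gene names came from the platform annotation (RefSeq's R64 gene table changed 12 of them). No coordinates or sequences are given.

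The 5498 named probe sets entered a two-sided limma fit (lmFit and eBayes, version 3.58.1, R 4.3.3), adjusted over all of them by Benjamini-Hochberg. The labels call the arrays biological replicates. Exact permutation tests used all 35 splits into 4 and 3 arrays. The fit was tested on simulated data. Lists are described by counts and medians beside those of all probe sets. Members and lists were chosen with earlier results of these data known. Array values in full were given for GCN4, members past the test and the 3 members per branch with the smallest p. From each other list the gene with the smallest p was named. BAP3, TAT2, AGP1 and GAP1 were chosen after their values were seen. Same-numbered replicates had correlations of deviations of -0.03, 0.17 and -0.51. Pairing by number was therefore not evident, though so few correlations cannot exclude it. Alternatives left out each array, used 1 wild-type pair, or changed scaling, filter, block, variance model or weights. Figures used matplotlib 3.10.9.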

Additional observations from a re-analysis of the deposited data

How the results depend on the processing

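In none of the 17 alternatives did a member pass the test. The SER3 difference was between -0.51 and -0.31 in all of them. Its limma adjusted p ran from 0.1 (array weights) to 0.997 (without deletion replicate 1). Leaving out arrays could not change its sign, since its groups did not overlap. HMT1 passed in every alternative that tested it. The replicate number as a block (replicate block) changed no call, with a smallest limma adjusted p of 0.974 among the members. HMT1 and SNO1 were absent when dim probe sets were left out, and the other 34 members kept their values. Counts and medians moved with the wild-type arrays. With 1 array left out at a time, 13 to 30 members were higher, lowest without wild-type replicate 2 and highest without wild-type replicate 1. In the same settings 1 to 5 members did not overlap, and the overlap of all probe sets was not counted. Leaving out an array can only make more groups separate, so nothing about the members is read from this range. An unadjusted limma p under 0.05 was reached by 1 to 3 members, and by 192 to 700 of the 5498 probe sets. The median of all members then ran from -0.035 to 0.078. With array weights 7 members had an unadjusted p under 0.05, of 963 probe sets in all.

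Against wild-type replicates 2 and 4 alone, 17 members did not overlap, 16 of them higher (21.1% of all probe sets separated upwards). An unadjusted p under 0.05 was found for 14 (16.3% of all probe sets), and the lysine and aromatic medians were 0.28 and 0.24. The genes with a changed sign were GCN4 at -0.0047, HIS5 at 0.0024, LYS4 at 0.051, LYS12 at 0.088, ILV1 at 0.022, LEU1 at 0.043, ARO2 at 0.096, ARO4 at 0.084 and ASN1 at 0.11. Against replicates 1 and 3 alone, 6 members were higher, and 11 did not overlap, all lower (11.1% of all probe sets separated downwards). An unadjusted p under 0.05 was found for 5 (6.6% of all probe sets), and the aromatic and other-branch medians were -0.050 and -0.16. The genes with a changed sign were HIS1 at -0.056, HIS4 at -0.099, HIS6 at -0.040, HIS7 at -0.021, LYS1 at -0.24, LYS2 at -0.15, LYS9 at -0.12, LYS20 at -0.10, LYS21 at -0.055, ILV2 at -0.033, ILV3 at -0.048, ILV6 at -0.069, LEU4 at 0.0013, TRP2 at -0.0062, TRP4 at -0.12, ARO1 at -0.038, ARO3 at -0.062, ASN2 at -0.027, SNZ1 at -0.088, SNO1 at -0.48 and HOM3 at -0.093. Other changes of sign were those of LEU1 at 0.0077 when the quantile normalization was repeated, of HIS5 at 0.0069, LYS1 at -0.017, LEU4 at 0.016 and TRP4 at -0.034 with the replicate block, and of GCN4 at -0.0031, HIS4 at -0.055, HIS7 at -0.067, LYS4 at 0.0042, ARO2 at 0.017 and SER1 at -0.051 with array weights. None of these differences passed before or after, and the cause was not tested.

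With 1 array left out at a time the sign of these genes also changed, over the ranges GCN4 -0.0096 to 0.027, HIS1 -0.035 to 0.040, HIS4 -0.090 to 0.078, HIS5 -0.098 to 0.0069, HIS7 -0.071 to 0.12, LYS1 -0.089 to 0.16, LYS2 -0.057 to 0.16, LYS4 -0.12 to 0.068, LYS12 -0.15 to 0.010, ILV1 -0.055 to 0.014, ILV3 -0.035 to 0.061, ILV6 -0.046 to 0.036, LEU1 -0.039 to 0.038, LEU4 -0.072 to 0.027, TRP4 -0.035 to 0.081, ARO2 -0.057 to 0.043, ARO3 -0.034 to 0.17, ARO4 -0.16 to 0.021, SER1 -0.012 to 0.11, ASN1 -0.14 to 0.0065, SNO1 -0.058 to 0.50 and HOM3 -0.012 to 0.13. The promoter motif search that had been planned was not run, since no promoter sequences were used here. The number of arrays limits the precision throughout, and RMA compresses differences of dim probe sets such as SNO1.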

Other observations

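The permease genes and the biosynthetic genes moved in opposite directions in wild-type replicate 2. It was the highest of all 7 arrays for 9 of 13 permease genes (69.2%, against 23.7% of all probe sets) and the lowest for none, while it was the lowest for 31 of 35 members of the biosynthetic list. The median distance of replicate 2 from the other wild-type arrays was 0.32 for the permease genes and -0.26 for the members. This contrast was noticed in the data, and no test of it was made. BAP3, a branched-chain amino acid permease, read 11.68, 12.16, 11.76 and 11.93 in wild-type replicates 1 to 4 and 11.65, 11.74 and 11.73 in the deletion strain. TAT2, a tryptophan permease, read 11.62, 12.07, 11.59 and 11.73 and then 11.72, 11.69 and 11.68. The broad amino acid permease genes AGP1 and GAP1 were exceptions, with their highest readings, 11.43 and 9.24, in replicate 1. They were the 2 of the 13 genes for which replicate 2 lay below the mean of the other wild-type arrays.

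Among the highest readings of the members, wild-type replicate 1 held 17 of 35 and replicate 3 held 10, so that 1 of these arrays was the highest of all 7 for 77.1% of the members, against 36.9% of all probe sets. In the lysine and branched-chain branches this was so for every gene.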
